A study of Mus musculus with 2 samples.

Results

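Meis2+ cells with a Gad transcript in the E16.5 mouse cerebral cortex, 144 of the 16213 barcodes that passed quality filters, are described here. They were selected on measured transcript counts, with each gene given as unique molecular identifiers (UMIs), the count of distinct captured transcripts. A member held at least 1 UMI of Gad1 and Gad2 together, at least 2 UMIs of Meis2 and at least 1 UMI of Sp8, Pax6 or Etv1, and no UMI of Lhx6, Adarb2, Ebf1, Isl1, Drd1, Drd2, Neurod6, Mki67 or Top2a. The values of these genes therefore describe the selection and carry no test. The series holds 2 single-cell RNA-seq libraries, made with the 10x Genomics 3' v3.1 kit from papain-dissociated cerebral cortex of wild-type (WT) embryos of the EomesDot line, in a series named for the Eomes-Cre mouse line. Both libraries belong to that 1 WT group, with no treatment, so the comparisons are between cell classes within the libraries. The labels do not say how many embryos went into a library. The main tests take out the general difference between the 2 libraries. Their p-values measure only how differences between cell classes varied between these 2 libraries, pooled over all classes in a fit.

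The lateral ganglionic eminence (LGE), a swelling of the embryonic ventral telencephalon, produces the projection neurons of the striatum and interneurons that migrate rostrally to the olfactory bulb, and also contributes neurons to the amygdala. Meis2 is a TALE-class homeobox factor that binds DNA together with Pbx partners and works with Dlx2 and Pax6 in olfactory bulb neurogenesis. Sp8 is a zinc finger factor of olfactory bulb interneurons, Etv1 (also called Er81) is an ETS factor of the dorsal LGE, and Pax6 marks dopaminergic olfactory interneurons but is also a defining factor of cortical radial glia. Gad1 and Gad2 make the transmitter GABA. The genes left at 0 mark interneurons of the medial ganglionic eminence (MGE; Lhx6) and the caudal ganglionic eminence (CGE; Adarb2), striatal projection neurons (Ebf1, Isl1, Drd1, Drd2), excitatory cortical neurons (Neurod6) and dividing cells (Mki67, Top2a).

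The members came from both libraries in like shares. Replicate 1 held 55 members among 5966 filtered barcodes, or 0.922% (95% exact binomial interval 0.695 to 1.2), and replicate 2 held 89 among 10247, or 0.869% (0.698 to 1.07). The mean was 0.895% ± 0.0377 (SD, n = 2), and the intervals, which cover counting error only, overlapped. Members had a median of 3970 UMIs in replicate 1 (range 2358 to 16571) and 4415 in replicate 2 (1578 to 11234). The deposited matrices held 9049 and 13556 barcodes with 46398156 and 64324236 UMIs, and the libraries had 40 barcodes in common.

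The conditions of the gate overlapped and were applied in order, so the number of cells that each removed depended on that order. Of the filtered barcodes 6320 held a Gad UMI, 3988 of these held at least 2 Meis2 UMIs, and 1377 of these held Sp8, Pax6 or Etv1. Requiring no Adarb2 took the cells from 1289 to 596, requiring no Neurod6 took them from 434 to 276, and requiring no Mki67 and no Top2a took them from 276 to 144. At the edges of the thresholds, 9 members held exactly 2 Meis2 UMIs while 21 cells that met every other condition held exactly 1, and 42 members held exactly 1 Gad UMI while 339 otherwise eligible cells held none. A further 338 cells met every condition but had none of Sp8, Pax6 and Etv1.

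Meis2 and the other gate genes were also found outside the members, and their levels in each class are set in part by the gates. For comparison, 5 other classes were gated in the same way: 288 MGE interneurons (Lhx6), 330 CGE interneurons (Adarb2), 154 striatal projection neurons (Ebf1 with Isl1, Drd1 or Drd2), 4135 excitatory neurons (Neurod6, no Gad) and 405 cycling GABAergic progenitors (Mki67 or Top2a). In CPM, the UMIs of a gene scaled to the summed UMIs of its class and library, Meis2 stood at 2482 and 2349 in the members of replicates 1 and 2, at 5123 and 4643 in striatal projection neurons, at 3042 and 2370 in cycling progenitors, at 1600 and 1418 in excitatory neurons, at 1119 and 1206 in CGE interneurons and at 96.3 and 93.8 in MGE interneurons. Striatal projection neurons were above the members in both libraries, members and cycling progenitors overlapped, and MGE interneurons were lowest. Sp8 stood at 124 and 106 CPM in the members, at 97.5 and 77.3 in CGE interneurons, at 64.9 and 80.1 in cycling progenitors and at no more than 3.21 in the other classes, although 87 of the 144 members held no Sp8 UMI. Etv1 was at 418 and 218 CPM in the members and at 217 and 179 in MGE interneurons, so that members of replicate 2 lay next to MGE interneurons of replicate 1. Pax6 was at 187 and 162 CPM in the members against 115 and 102 in cycling progenitors and 76.0 and 76.2 in CGE interneurons. In the RefSeq annotation of GRCm38.p6, the assembly behind the mm10 build of the processing notes, these 4 protein-coding genes lie at chr2:115861264-116067537 (Meis2), chr12:118846288-118852578 (Sp8), chr12:38780082-38870483 (Etv1) and chr2:105668896-105698410 (Pax6).

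**Figure D1:**
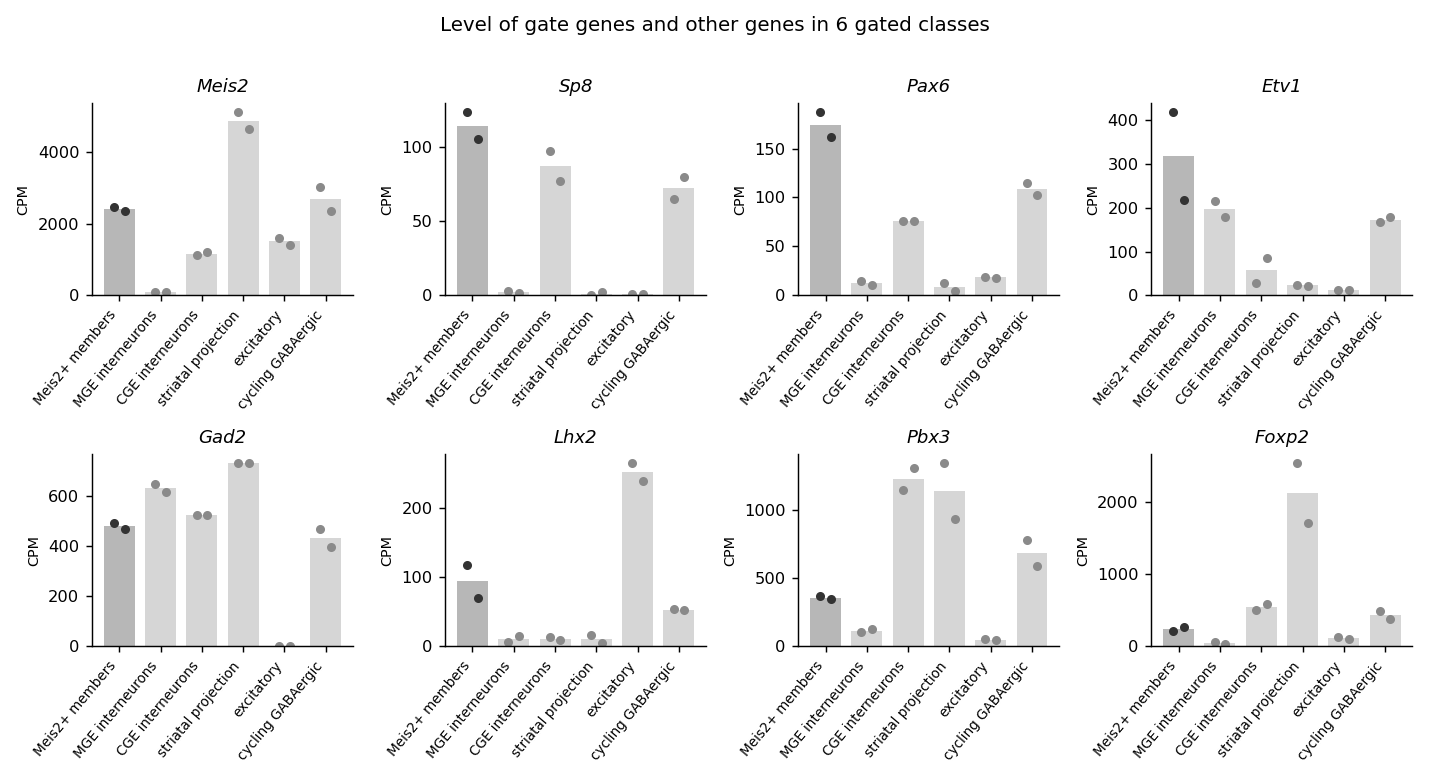
Level of 4 gate genes (Meis2, Sp8, Pax6, Etv1), of Gad2 and of 3 further genes in the 6 gated classes, in CPM on linear axes that start at 0; bars are the mean of the 2 libraries and points the libraries (replicate 1 left, replicate 2 right). Meis2 is highest in striatal projection neurons, Sp8 is near 0 in MGE, striatal and excitatory classes, and Foxp2 and Pbx3 are lower in the members than in CGE interneurons and striatal projection neurons.

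The members were not uniform. By the factor that admitted them, 57 held Sp8 (26 and 31 in replicates 1 and 2), 52 held Pax6 without Sp8 (15 and 37) and 35 held Etv1 alone (14 and 21), and 34 of the 57 cells with Sp8 also held Etv1. These 3 kinds were formed after the values of the members had been seen, and their differences are given with no test. Their median depths were 3526, 5715.5 and 4513 UMIs.

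Most cells with Sp8 held Dlx transcripts, and many cells with Pax6 and no Sp8 held few or none. Dlx genes belong to GABAergic lineages at large, so they do not tell LGE-type cells from MGE or CGE interneurons. The Dlx1, Dlx2, Dlx5, Dlx6 and Dlx6os1 genes, the homeobox genes and antisense transcript of ventral GABAergic lineages, summed to a median of 33.0 UMIs per 10000 in cells with Sp8 (range 0 to 80.6) and 24.4 in cells with Etv1 alone (0 to 97.8). In cells with Pax6 and no Sp8 the median was 2.34 (0 to 75.5), and 20 of these 52 cells held no Dlx UMI, against 1 of 57 and 3 of 35. The sum of 6 radial glia genes (Fabp7, Vim, Slc1a3, Sox9, Hes1 and Hes5) went the other way and reached 508 UMIs per 10000 in cells with Pax6 and no Sp8, with a median of 16.0, against medians of 7.99 with Sp8 and 7.93 with Etv1 alone. Eomes or Neurog2, factors of cortical excitatory progenitors, gave a UMI in 13 of the 52 cells with Pax6 and no Sp8, in 2 of the 57 with Sp8 and in 0 of the 35 with Etv1 alone. The plot of each member by these sums shows a group of cells with many glial and no Dlx UMIs in both libraries.

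**Figure D2:**
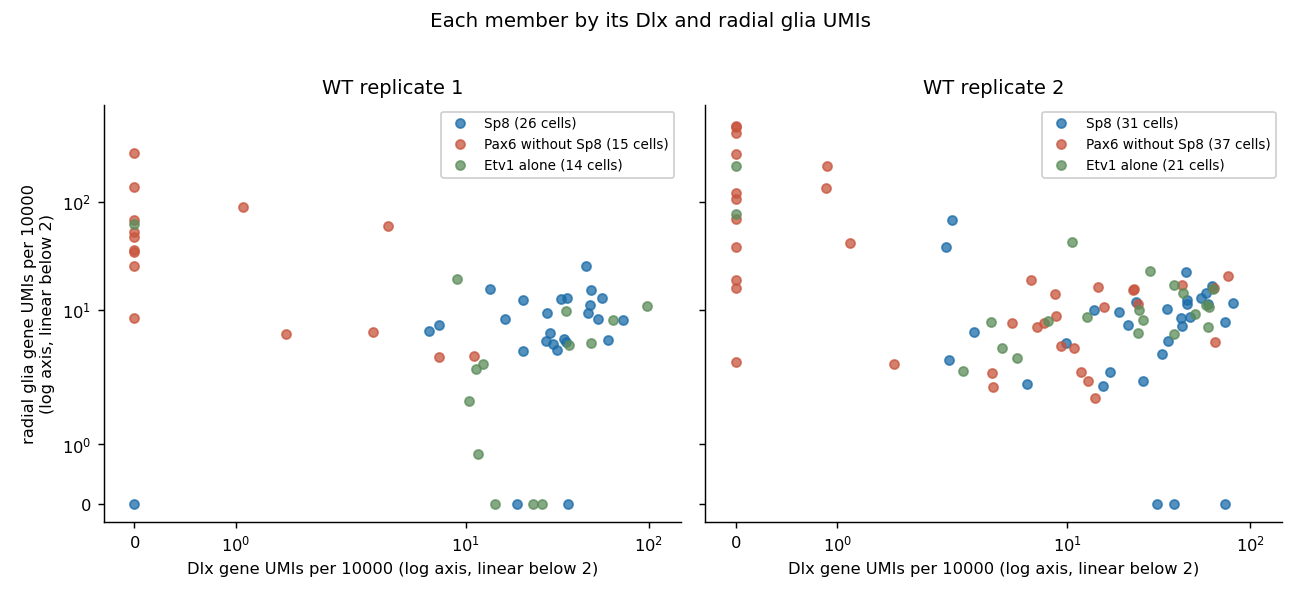
Each of the 144 members by its Dlx gene UMIs (x) and radial glia gene UMIs (y), both per 10000 UMIs on axes that are logarithmic above 2 and linear below; 1 panel for each library, coloured by kind. Cells with Sp8 (blue) lie mostly at the right with few glial UMIs, and the cells at the upper left, with no Dlx UMI, are mostly cells with Pax6 and no Sp8 (red).

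Levels summed over each kind showed the same contrast in both libraries. Dlx6os1 was at 2035 and 1812 CPM in cells with Sp8, at 1612 and 1496 with Etv1 alone, and at 32.0 and 561 with Pax6 and no Sp8. Gad1 was at 328 and 275 CPM with Sp8, at 242 and 195 with Etv1 alone and at 56.0 and 215 with Pax6 and no Sp8. Fabp7, a lipid-binding protein of radial glia, was at 310 and 809 CPM with Sp8, at 457 and 3207 with Etv1 alone and at 3783 and 8778 with Pax6 and no Sp8. For these genes the kind with Pax6 and no Sp8 did not overlap the kind with Sp8 in either library. Eomes was at 128 and 78.1 CPM with Pax6 and no Sp8 and had no UMI in the other kinds. Cells with Etv1 alone had the highest level of Nxph1, a gene of MGE interneurons. Nxph1, a secreted neurexin ligand, was at 1142 and 1004 CPM there against 155 and 291 with Sp8 and 0 and 82.9 with Pax6 and no Sp8. Sox6, used by the MGE gate, was at 1451 and 512 CPM with Etv1 alone, at 488 and 625 with Pax6 and no Sp8, which overlapped it, and at 86.2 and 178 with Sp8.

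**Figure D3:**
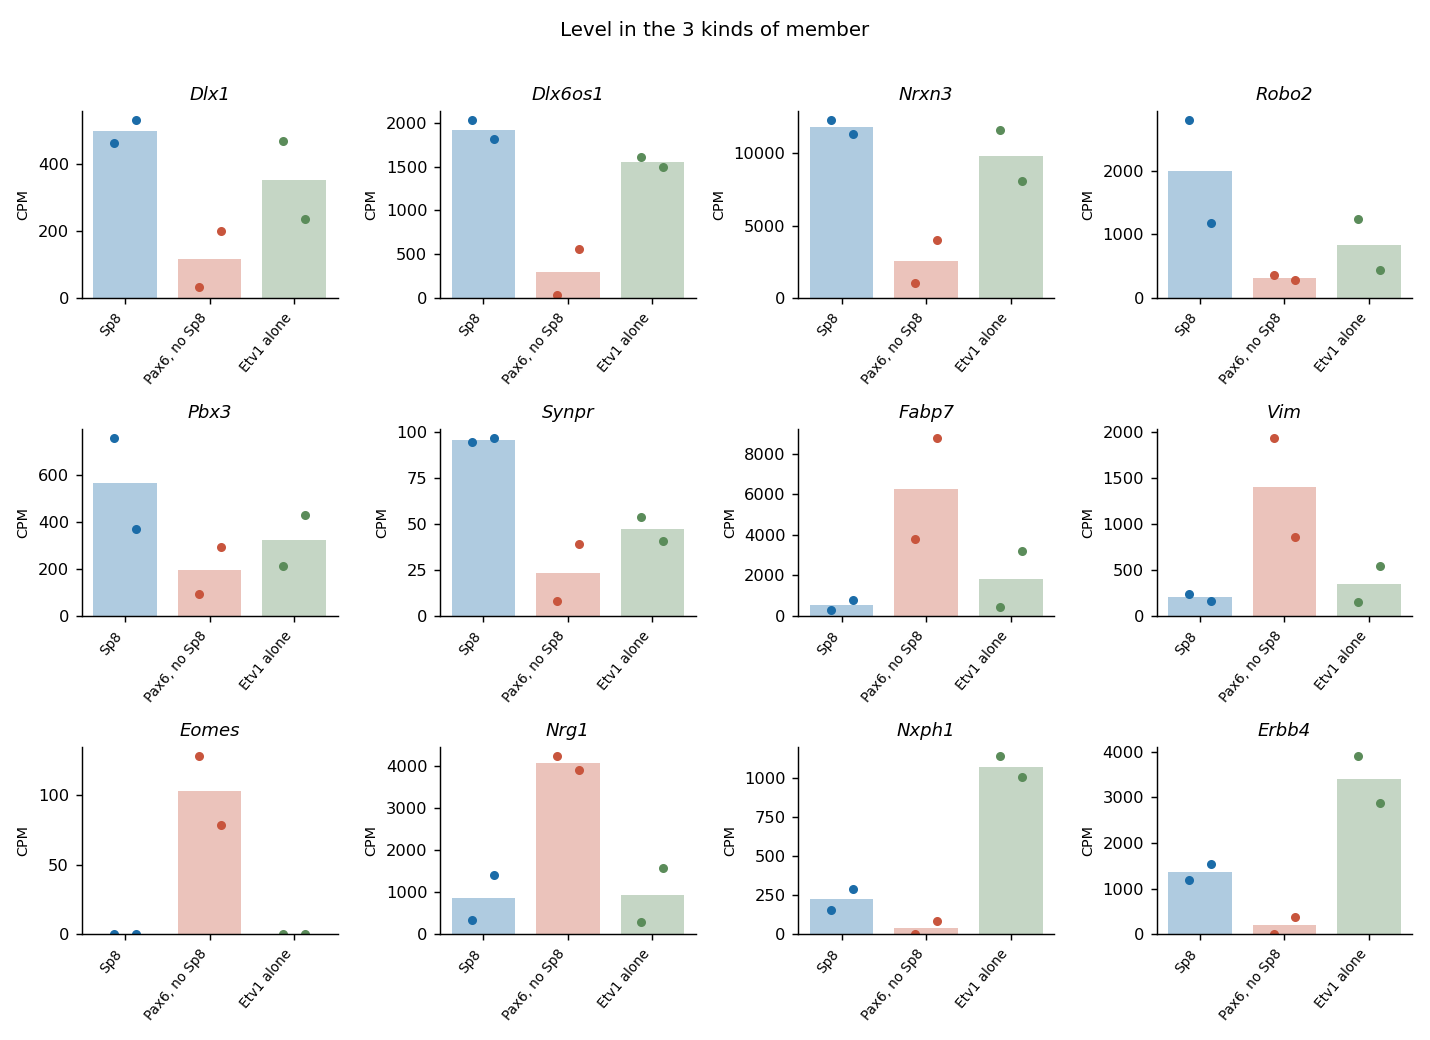
Level of 12 genes in the 3 kinds of member, in CPM on linear axes that start at 0; bars are the mean of the 2 libraries and points the libraries. Dlx1, Dlx6os1, Nrxn3 and Synpr are highest with Sp8, Fabp7, Vim, Eomes and Nrg1 with Pax6 and no Sp8, and Nxph1 and Erbb4 with Etv1 alone.

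A Gad UMI was also found at a measurable rate in cells that should lack it. Among Neurod6+ excitatory cells (6405 cells, median depth 6867 UMIs), 12.5% held at least 1 Gad UMI, 81.0% held at least 2 Meis2 UMIs, and 11.9%, 8.51% and 1.58% held Pax6, Etv1 and Sp8. Among cells that met every other condition, 75.0% of those with Sp8 held a Gad UMI (57 of 76, median depth 3446.5; 95% exact interval 63.7 to 84.2), 37.2% of those with Etv1 alone (35 of 94; 27.5 to 47.8) and 16.6% of those with Pax6 and no Sp8 (52 of 313, median depth 5802; 12.7 to 21.2). In replicate 1 the last share was 13.6% (7.84 to 21.5) beside 11.8% in excitatory cells, and in replicate 2 it was 18.2% (13.2 to 24.2) beside 12.8%, which lies below that interval. The share with at least 3 Gad UMIs was 4.55% and 8.37% in replicates 1 and 2, beside 3.77% and 4.56% in excitatory cells. Within the members, 46.2% of the cells with Pax6 and no Sp8 had exactly 1 Gad UMI, against 19.3% of those with Sp8. The Dlx, radial glia and Eomes values thus go against the label of LGE-type interneuron for part of the members, and all 144 are called Meis2+ cells here. Every count of genes below is followed, where it matters, by its value over the 57 members with Sp8 only, an alternative added after the values had been seen.

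Clustering of all filtered barcodes without the gate genes placed the members in several clusters rather than in 1. Of 28 clusters, 8 held at least 6 members. Cluster 8 (782 cells) held 38 members, 24 of them with Sp8, and its leading genes included Pbx3, Tshz1, Sp8, Adarb2, Foxp2 and Etv1. Cluster 6 (994 cells), with Clspn and Top2a among its leading genes and holding 349 of the gated cycling progenitors, took 33 members, 19 of them with Sp8. Cluster 5 (1059 cells), led by the astroglial genes Tnc, Aldoc and Aldh1l1, took 24 members, of which 18 had Pax6 and no Sp8, and cluster 13 (608 cells), led by Neurog2 and Eomes, took 6 members, all with Pax6 and no Sp8. Cluster 10 (675 cells), led by Drd2, Ptprm and Six3, took 18 members, 11 of them with Pax6 and no Sp8. Cluster 9, led by Nxph1 among others and holding 117 gated MGE interneurons, took 6 members, 5 of them with Etv1 alone.

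**Figure D4:**
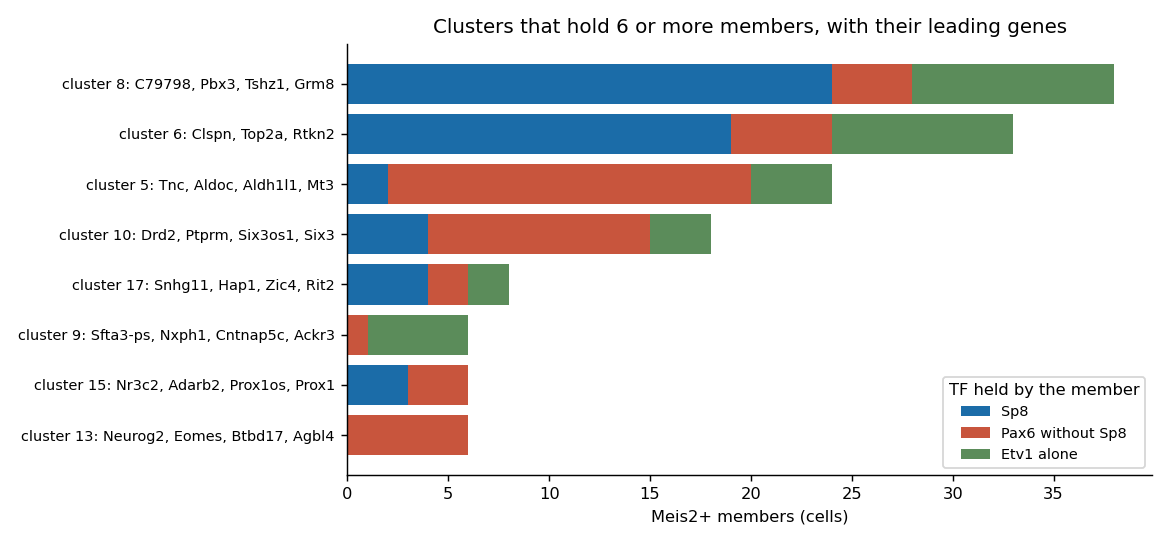
Number of members in each cluster that holds at least 6 of them, stacked by kind, with up to 4 leading genes of the cluster. Members with Sp8 are mostly in clusters 8 and 6, and members with Pax6 and no Sp8 mostly in clusters 5 and 10.

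In cluster 8, which held the most members, 744 cells were not members. Of these, 639 (85.9%) held an Adarb2 UMI, which was the only reason for 203 of them, and 382 (51.3%) held none of Sp8, Pax6 and Etv1. The same cluster also held 64 of the 330 gated CGE interneurons, so some cells of the CGE class lay beside the members in these data.

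To ask how the Meis2+ cells differed from 3 postmitotic GABAergic classes, UMIs were summed per library and class and tested by quasi-likelihood in edgeR, blocking on library, and genes with a Benjamini-Hochberg adjusted p under 0.05 were called. Of 14652 genes tested, none of them a gate gene, 698 (4.76%) were higher and 822 (5.61%) lower in Meis2+ cells than in MGE interneurons, 616 (4.2%) higher and 767 (5.23%) lower than in CGE interneurons, and 633 (4.32%) higher and 595 (4.06%) lower than in striatal projection neurons. The median log2 fold change of all genes was -0.06, -0.05 and 0.00. Because the cells were chosen by the counts of gate genes, a gene that goes along with a gate gene in any cell can differ for that reason. With the 57 cells with Sp8 only, the percentages higher and lower were 1.37% and 2.9% against MGE interneurons, 0.737% and 2.3% against CGE interneurons, and 1.54% and 2.38% against striatal projection neurons, with fewer cells in the sums. The 3 comparisons share the sums of the Meis2+ cells and are given side by side.

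Transcription factors of the LGE and olfactory lineage went in both directions in all 3 comparisons. Of 21 tested, 8 were higher, 2 lower and 11 not called against MGE interneurons (median log2 fold change 0.78), 2 higher and 6 lower than in CGE interneurons (-0.22), and 8 higher and 5 lower than in striatal projection neurons (1.13); with Sp8 cells only the counts were 5 and 2, 0 and 6, and 4 and 5. Foxp2, a forkhead factor of striatal and intercalated cells, was at 209 and 272 CPM in the Meis2+ cells of replicates 1 and 2, at 61.0 and 33.9 in MGE interneurons, at 507 and 580 in CGE interneurons and at 2531 and 1708 in striatal projection neurons. The members thus lay between the MGE class and the others without overlap, with log2 fold changes of 2.32 ± 0.25 (SE; adjusted p = 1.4e-11), -1.30 ± 0.17 (2.8e-08) and -3.12 ± 0.17 (2.6e-24). Sall3, a zinc finger factor needed by dopaminergic olfactory interneurons, was at 38.0 and 42.2 CPM in the members and gave 2 UMIs in all MGE interneurons against 30, a ratio of 28.1 (95% counting interval 7.13 to 243); its fold change was not called against the other 2 classes. Zic1, of the Zic zinc finger family of olfactory precursors, was at 105 and 106 CPM, higher than in MGE interneurons (2.24 ± 0.33) and striatal projection neurons (1.45 ± 0.35). Sp9, the close relative of Sp8, was at 206 and 188 CPM, higher than in striatal projection neurons (3.02 ± 0.33) and not called against MGE interneurons (-0.14 ± 0.18) or CGE interneurons (0.33 ± 0.19). Tshz1, a factor of olfactory bulb and intercalated neurons, was at 63.4 and 56.3 CPM, higher than in striatal projection neurons (2.69 ± 0.53) and lower than in CGE interneurons (-1.07 ± 0.25), a call lost with Sp8 cells only, where Tshz2 was called in its place, and when Sp8, Pax6 or Etv1 was not required.

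Further factors of that group followed other patterns. Nfib, a nuclear factor I gene, was at 1186 and 1077 CPM in the members, higher than in MGE interneurons (0.78 ± 0.14) and striatal projection neurons (2.43 ± 0.18) and lower than in CGE interneurons (-1.25 ± 0.13), which stood at 2618 and 2276. Npas3, a bHLH-PAS factor, was lower than in MGE (-1.45 ± 0.17) and CGE interneurons (-2.68 ± 0.16) and higher than in striatal projection neurons (1.92 ± 0.25). Gsx2, the homeobox factor that patterns the LGE, was called higher than in MGE interneurons, on 10 UMIs in 7 members against 1 (ratio 18.7, counting interval 2.67 to 813). Of the 10 UMIs, 7 were in cells with Pax6 and no Sp8, and the call was lost with Sp8 cells only, with 3 Gad UMIs, without the members with Pax6 and no Sp8, when Sp8, Pax6 or Etv1 was not required, and by DESeq2. Dlx5 and Dlx6 were not called in any of the 3 comparisons, and Dlx1 and Dlx2 served to gate the cycling class and were not tested.

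Among the TALE homeobox partners of Meis2, Pbx3 alone was called in all 3 comparisons. It was at 368 and 347 CPM in the members, at 106 and 126 in MGE interneurons, at 1147 and 1315 in CGE interneurons and at 1347 and 939 in striatal projection neurons, with no overlap between the members and any class. The log2 fold changes were 1.52 ± 0.19, -1.93 ± 0.15 and -1.69 ± 0.16, and all 3 calls were also made with Sp8 cells only. Of the 10 partners tested, 4 were higher than in MGE interneurons (Meis1, Pbx3 and Tgif2 among them) and none lower, 1 was higher (Tgif2) and 1 lower (Pbx3) than in CGE interneurons, and 2 (Meis1 and Pbx3) were lower than in striatal projection neurons. In the Sp8 cells alone the counts were 3 and 0, 0 and 1, and 0 and 1, with both calls of Tgif2 and the striatal call of Meis1 lost. Meis1, the paralog of Meis2, was at 101 and 113 CPM, with 1.31 ± 0.27 against MGE interneurons and -0.79 ± 0.23 against striatal projection neurons, the latter turning to 0.036 when Sp8, Pax6 or Etv1 was not required.

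**Figure D5:**
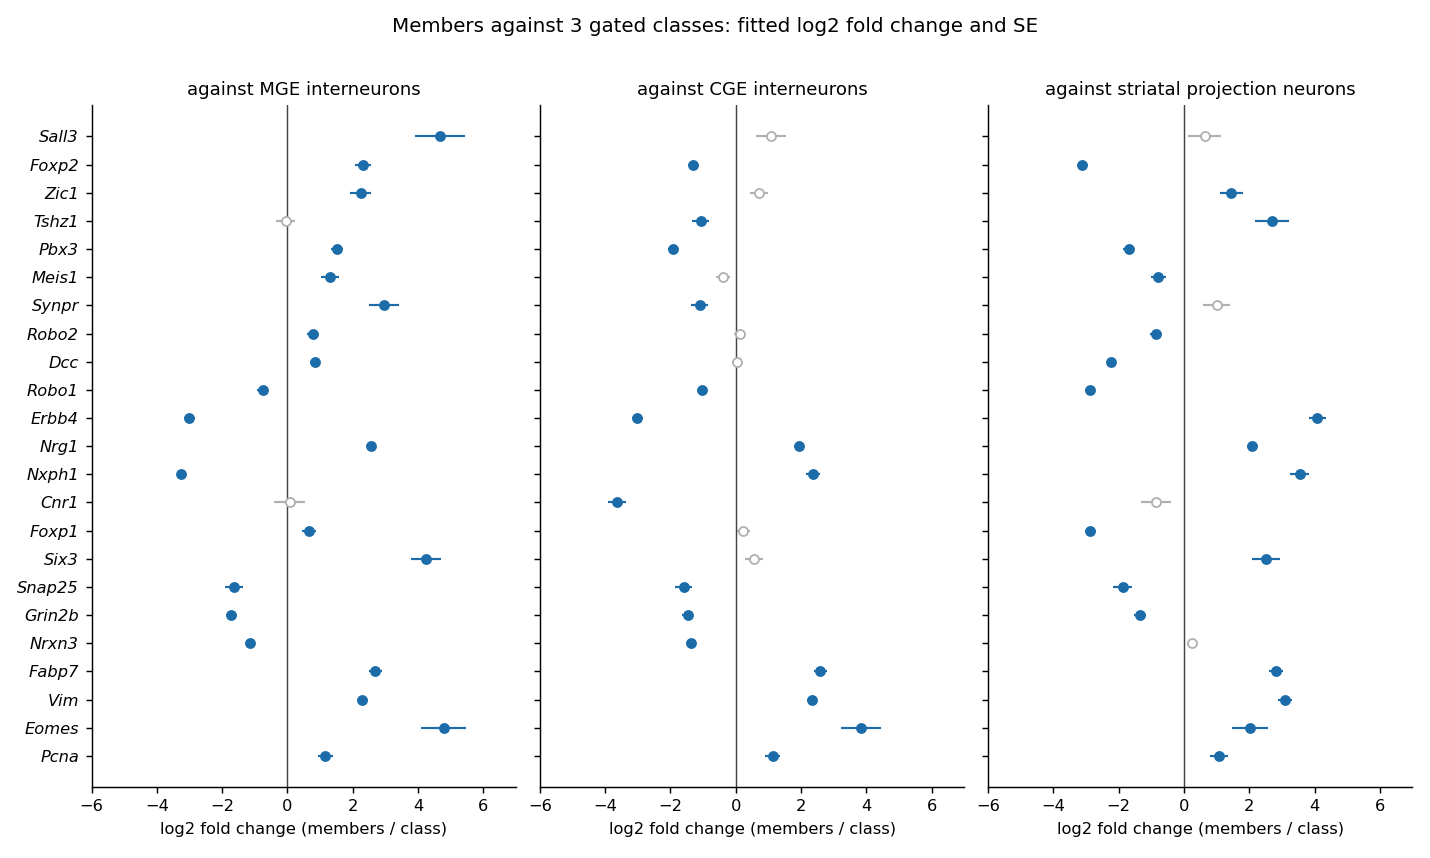
Fitted log2 fold change and SE of 23 genes in the Meis2+ cells against MGE interneurons, CGE interneurons and striatal projection neurons; filled blue points were called at an adjusted p under 0.05 and open grey points were not. Pbx3 and Foxp2 are above 0 against MGE interneurons and below 0 against the other classes, Snap25 and Grin2b are below 0 against all 3, and Fabp7 and Vim are above 0 against all 3.

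Genes of migration and guidance, the longest list, had calls in both directions. Of 28 tested, 5 were higher and 15 lower than in MGE interneurons (median log2 fold change -0.83), 5 higher and 10 lower than in CGE interneurons (-0.32), and 11 higher and 7 lower than in striatal projection neurons (0.36); with Sp8 cells only the counts were 3 and 9, 1 and 10, and 5 and 6. Erbb4, the neuregulin receptor that guides cortical interneurons, was at 1357 and 1293 CPM in the members, at 9945 and 10096 in MGE interneurons, at 10616 and 8905 in CGE interneurons and at 16.3 and 109 in striatal projection neurons. The members were far below both interneuron classes and far above the striatal class, with log2 fold changes of -3.01 ± 0.16, -3.02 ± 0.16 and 4.09 ± 0.25. Robo1, a Slit receptor, was lower than in all 3 classes (-0.76 ± 0.17, -1.03 ± 0.16 and -2.87 ± 0.16), with 254 and 451 CPM in the members against 2743 and 2411 in striatal projection neurons. The calls of Robo1 against MGE and CGE interneurons were lost with the stricter gate and with 3 Gad UMIs, and turned to 1.03 and 0.76 when Sp8, Pax6 or Etv1 was not required. Robo2, its paralog, was at 1465 and 580 CPM in the members, higher than in MGE interneurons (0.79 ± 0.18) and lower than in striatal projection neurons (-0.86 ± 0.18). Its libraries differed widely, and replicate 2 lay within the range of MGE interneurons, which stood at 592 and 487 CPM. With Sp8 cells only, at 2803 and 1181 CPM, Robo2 was also called higher than in CGE interneurons, and the fold change against striatal projection neurons was 0.013 and not called. Dcc, the netrin receptor, was at 1202 and 981 CPM, higher than in MGE interneurons (0.85 ± 0.15) and lower than in striatal projection neurons (-2.22 ± 0.15), which stood at 5274 and 4560.

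Several migration genes with roles in the olfactory stream were lower in the members than in both cortical interneuron classes. Dcx, the microtubule protein of migrating neurons, Ncam1, the neural cell adhesion molecule, and its polysialyltransferases St8sia2 and St8sia4 were all lower than in MGE and CGE interneurons, at log2 fold changes between -1.53 and -0.65. Ncam1 was called higher than in striatal projection neurons (0.50 ± 0.16, edgeR adjusted p = 0.031). That call of Ncam1 was lost with likely doublets removed, with cells of at least 2500 UMIs, in a fit of the compared classes alone and without the library block. With Sp8 cells only, St8sia2 kept both calls, Ncam1 and St8sia4 that against CGE interneurons, and Dcx neither. St8sia2 lost both calls with the stricter gate, with 3 Gad UMIs and when Sp8, Pax6 or Etv1 was not required. Prokr2, a receptor needed for olfactory bulb migration, gave 4 UMIs in the members of replicate 2 and none in replicate 1, and was called lower than in MGE interneurons (-2.36 ± 0.73), a call lost under 6 of 12 alternatives, DESeq2 and the removal of likely doublets among them. Nrg1, the ligand of Erbb4, was called higher than in all 3 classes (2.57 ± 0.16, 1.93 ± 0.15 and 2.1 ± 0.17), at 1880 and 2644 CPM in the members against 315 to 658 in those classes. Of its UMIs in the members 77.4% came from cells with Pax6 and no Sp8, and excitatory neurons stood at 2059 and 1703 CPM. The call of Nrg1 with Sp8 cells only held against MGE interneurons and not against the other 2 classes. Ackr3, a chemokine receptor of migrating interneurons, was at 38.0 and 32.8 CPM, lower than in MGE interneurons (-2.89 ± 0.25) and higher than in CGE interneurons (1.31 ± 0.44) and striatal projection neurons (2.21 ± 0.61), but cells with Sp8 held 0 and 16.2 CPM and those with Etv1 alone 134 and 71.7. Among Sp8 cells only, the fold change of Ackr3 against CGE interneurons was -0.88 and not called. That call was lost under 8 of 12 alternatives, DESeq2 and the fit without the library block among them. The call of Ackr3 against striatal projection neurons was lost with Sp8 cells only, with the stricter gate and with 3 Gad UMIs.

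Products of mature olfactory bulb interneurons were sparse at this stage. Of 13 listed, 9 were expressed enough to be tested, with 1 higher and 1 lower than in MGE interneurons, 0 and 1 against CGE interneurons and 2 and 2 against striatal projection neurons. Synpr, a synaptic vesicle protein, was at 50.7 and 56.3 CPM in the members, higher than in MGE interneurons at 6.42 and 6.52 (2.96 ± 0.47, adjusted p = 1.2e-06) and lower than in CGE interneurons (-1.10 ± 0.26, adjusted p = 0.0021). The call against CGE interneurons was lost with the stricter gate, with 3 Gad UMIs, without the members with Pax6 and no Sp8, and with Sp8 cells only, whose level was 94.9 and 97.1 CPM and whose fold change was -0.38. Calb2, calretinin, was at 47.6 and 37.5 CPM and higher than in striatal projection neurons, on 31 UMIs in 11 members against 2 (ratio 14.5, counting interval 3.69 to 125), a call lost without the library block, by DESeq2 and when Sp8, Pax6 or Etv1 was not required. Scgn, secretagogin, had no UMI in the members, where 3 counts would be 9.51 and 7.04 CPM, and Th, tyrosine hydroxylase of dopaminergic neurons, gave 3.17 CPM in replicate 1 and none in replicate 2.

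Most of the striatal projection neuron genes tested were lower in the members than in the striatal class. Of 12, 8 were lower, 1 was higher and 3 were not called (median log2 fold change -2.69, beside 0.00 over all genes). Foxp1 was at 254 and 153 CPM in the members against 1527 and 1291 (-2.87 ± 0.17), Bcl11b, also called Ctip2, at 365 and 300 against 1898 and 1744 (-2.51 ± 0.15), and Rarb, a retinoic acid receptor, at 15.9 and 11.7 against 482 and 339 (-4.93 ± 0.36). Ikzf1, a zinc finger factor of striatal neurons, had no UMI in the members against 39 in striatal projection neurons, at least 13.9-fold lower with 3 counts over the group as the floor. Six3, a homeobox factor of striatal precursors, went the other way at 76.1 and 96.2 CPM against 20.4 and 11.1 (2.52 ± 0.44). Against MGE interneurons, Foxp1 (0.65 ± 0.21), Six3 and Zfp521 of this list were higher and Bcl11b and Pde10a lower, and with Sp8 cells only Six3 was the one called. The calls of Foxp1, Zfp521 and Bcl11b were also lost without the library block. Of the 6 genes listed for intercalated amygdala cells, Tshz1 was higher than in striatal projection neurons, and Foxp2, Pbx3 and the opioid receptor gene Oprm1 were lower, the last on 1 UMI in the members against 40 (ratio 42.8, counting interval 7.25 to 1731).

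Genes of the MGE and CGE classes were tested where they had no part in a gate. All 10 tested MGE genes were lower than in MGE interneurons (median log2 fold change -3.13), including the peptides Sst at 3.17 and 28.2 CPM against 207 and 635 (-4.70 ± 0.34) and Npy at 31.7 and 32.8 against 674 and 593 (-4.37 ± 0.23), and 7 of the 10 were called with Sp8 cells only. Of the same 10, Nxph1 and Ackr3 were higher than in CGE interneurons and than in striatal projection neurons. Mef2c and Npas1 were lower than in CGE interneurons, and the others were not called in those comparisons. Lhx8, an MGE factor of cholinergic neurons, had no UMI in the members and was at least 7.65-fold lower. Nkx2-1, which specifies the MGE, was at 22.2 and 0 CPM, all of it in cells with Etv1 alone. Of 6 tested CGE genes, Cnr1, Reln and Npas1 were lower than in CGE interneurons and the other 3 were not called (median -2.44). Cnr1, the cannabinoid receptor, was at 15.9 and 25.8 CPM against 256 and 231 (-3.63 ± 0.28, adjusted p = 5.8e-17). Vip had no UMI in the members or in the CGE class.

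Of 19 genes of GABA signalling tested, 1 was higher and 7 lower than in MGE interneurons (median -0.77). The counts were 2 and 4 against CGE interneurons (-0.35) and 1 and 3 against striatal projection neurons (-0.21). Over all genes, in the same order, 4.76% were higher and 5.61% lower, 4.2% and 5.23%, and 4.32% and 4.06%. With Sp8 cells only the counts were 0 and 3, 0 and 1, and 0 and 1, too few to set beside a share. Gabrb1, the β1 subunit of the GABA-A receptor, was higher in all 3 comparisons (log2 fold changes 2.0 ± 0.30, 1.96 ± 0.29 and 1.76 ± 0.34), and 78.2% of its UMIs were in cells with Pax6 and no Sp8; with Sp8 cells only it was not called in any. Slc32a1, the vesicular GABA transporter, was at 31.7 and 51.6 CPM and was not called.

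In the retinoic acid pathway, which is active in striatal differentiation, 14 genes were tested, and most calls were against striatal projection neurons. Over all genes, 4.06% were lower and 4.32% higher in that comparison. Aldh1a3, a synthesizing enzyme, and the receptors Rarb and Rxrg were among 4 genes lower than in striatal projection neurons, and the same 4 were called lower with Sp8 cells only. Rxrg was at 3.17 and 4.69 CPM in the members against 89.8 and 71.4, on 3 UMIs against 54 (19.3-fold lower, counting interval 6.25 to 96.3; edgeR adjusted p = 9.1e-05). Against MGE interneurons, Crabp1 and Rara were lower and no gene of the list was higher. The call of Crabp1 was lost by DESeq2 and with 3 Gad UMIs, and that of Rara under 6 of 12 alternatives, DESeq2 and Sp8 cells only among them. Aldh1a3 lost its call under 5 of 11, DESeq2 among them.

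Of the neuronal maturation genes, more were lower than higher in the Meis2+ cells against each of the 3 postmitotic GABAergic classes. Of 17 tested, 11 were lower and 0 higher than in MGE interneurons (median -0.89), 10 and 1 (Rbfox1, a splicing factor, 0.69 ± 0.18, not called by DESeq2 or with likely doublets removed) against CGE interneurons (-0.56), and 8 and 0 against striatal projection neurons (-0.68); with Sp8 cells only, 8 lower and 0 higher, 3 and 0, and 5 and 1. The list summed to 21232 and 21449 CPM in cells with Sp8, to 23614 and 16046 with Etv1 alone and to 4927 and 9602 with Pax6 and no Sp8, against 17544 and 17717 in striatal projection neurons, so the sum over all members (15331 and 14515) averages unlike kinds. Snap25, of the presynaptic fusion machinery, was at 57.1 and 58.7 CPM in the members against 124 to 243 in the 6 sums of the other classes (-1.64 ± 0.26, -1.60 ± 0.26 and -1.88 ± 0.28). Grin2b, an NMDA receptor subunit, was at 206 and 317 CPM against 608 to 942 (-1.72 ± 0.16, -1.47 ± 0.17 and -1.35 ± 0.18). Neither gene overlapped between the members and any class, and both were called lower in all 3 comparisons with Sp8 cells only. Nrxn3, a presynaptic neurexin, was at 7694 and 7067 CPM, lower than in MGE (-1.14 ± 0.14) and CGE interneurons (-1.37 ± 0.14). Its level was 12315 and 11323 CPM in cells with Sp8 and 1064 and 4030 with Pax6 and no Sp8, and with Sp8 cells only it was called higher than in striatal projection neurons.

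Markers of other cell types moved with these results, most of all those of radial glia. Of 8 radial glia genes, 6 were higher than in MGE interneurons (median 2.26), 5 than in CGE interneurons (2.06) and 7 than in striatal projection neurons (3.0), and none was lower. Fabp7 was at 1721 and 5190 CPM in the members against 437 to 516 in the 6 sums of the other classes (2.69 ± 0.20, 2.60 ± 0.20 and 2.82 ± 0.21), and Vim, an intermediate filament of progenitors, at 891 and 584 against 71.4 to 185. The list summed to 3351 and 6537 CPM over all members, to 1078 and 1254 in cells with Sp8, and to 6822 and 10783 in cells with Pax6 and no Sp8, against 573 to 994 in the other classes. With Sp8 cells only, 0 of the 8 were called against MGE or CGE interneurons, where Fabp7 had log2 fold changes of -0.0031 and -0.10, and 3 (Vim, Sox2 and Nes) were called against striatal projection neurons. The part of these markers in the calls over all members was not tested beyond that.

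The other marker lists were smaller. Of 6 cycling genes outside the gate, 4 were higher than in MGE interneurons, 3 than in CGE interneurons and 2 than in striatal projection neurons, and Pcna, the replication clamp, at 162 and 117 CPM against 52.9 to 62.6, was called in all 3 comparisons and was the 1 of the 6 called in each with Sp8 cells only. Of 5 excitatory lineage genes, Eomes was higher in all 3 comparisons, with 32 UMIs in 7 members, all with Pax6 and no Sp8, and Slc17a6, a vesicular glutamate transporter, was higher than in MGE interneurons, on 5 UMIs against none (at least 3.12-fold), a call lost under 6 of 11 alternatives, DESeq2 and the fit without the library block among them. The 4 globin genes, of red blood cells, summed to 799 and 3742 CPM; 236 of the 418 Hba-a1 and 504 of the 982 Hbb-bs UMIs were in 1 member, and 2 globin genes were called higher than in CGE interneurons and 3 than in striatal projection neurons. All 4 were called in each comparison with Sp8 cells only, whose globin sum was 992 and 9705 CPM. With likely doublets removed none was called higher, and 4 were lower than in MGE interneurons, 1 lower than in CGE interneurons and 0 called against striatal projection neurons. No oligodendrocyte lineage gene was called. Of the lists for Cajal-Retzius, endothelial and mural, microglial and meningeal cells, the genes called were all lower in the members: Reln, Rgs5, C1qa and C1qb, and Col1a1, Col1a2, Lum and Dcn. With likely doublets removed, 3 genes of each of the microglial and meningeal lists had enough counts and none was called, and C1qb and Col1a2 turned to 1.77 and 1.2 against MGE interneurons. The microglial list summed to 148 and 13.0 CPM in the MGE interneurons of replicates 1 and 2.

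Among the 8 genes with the largest fold in each direction against MGE interneurons, the proneural factor Neurog2 gave 62 UMIs in the members against 2 (ratio 58.1, counting interval 15.4 to 490), in 14 members, 60 of the UMIs in cells with Pax6 and no Sp8. Fzd8, a Wnt receptor, gave 16 UMIs in 13 members of all 3 kinds and none in MGE interneurons, at least 10.0-fold higher. Ism2 was at least 18.1-fold higher, but 28 of its 29 UMIs were in 1 member. Ptx3, Gas1, Lipg, Eomes and Sall3 completed the genes that were higher, at ratios of 28.1 to 43.1, and of these Sall3 alone was called with Sp8 cells only. In the other direction Dgkg, a diacylglycerol kinase, had 138 UMIs in MGE interneurons and none in the members, at least 24.5-fold lower, and Cacng3, an AMPA receptor auxiliary subunit, 142 against 1 (ratio 75.8, interval 13.4 to 3013). Lhx8, Slc6a13 and Dlc1 also had no UMI in the members, and Cntnap3 and Nxph2 had 1 and 2. The calls of Slc6a13 and Dlc1 were lost with likely doublets removed and with Sp8 cells only. Neurog2 lost its call with Sp8 cells only and without the members with Pax6 and no Sp8. Fzd8 lost its call with the stricter gate and with 3 Gad UMIs, Lhx8 with Sp8 cells only, and Ism2 and Slc6a13 by DESeq2.

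Among the genes named by size against CGE interneurons, Tcf7l2, a nuclear effector of Wnt signalling, gave 35 UMIs in 19 members against 1 (ratio 70.1, interval 11.8 to 2845), 27 of them in cells with Pax6 and no Sp8. Arhgef3, a guanine nucleotide exchange factor, gave 17 UMIs in 6 members and none in the CGE class, at least 11.3-fold higher, and Plce1, a phospholipase C, was at 130 and 101 CPM against 1.65 and 4.55 (4.92 ± 0.50), although cells with Sp8 held 0 and 8.09. Ano1, Tbc1d4, Lipg, Dock1 and Cfap44 were higher as well, and of these 5 Dock1 alone was called with Sp8 cells only, where Tbc1d4 turned to -4.04. Nr3c2, the mineralocorticoid receptor, was at 3.17 and 14.1 CPM against 418 and 302 (-5.35 ± 0.34), and Prox1os, the antisense transcript of the CGE factor Prox1, at 6.34 and 4.69 against 90.9 and 89.8 (-4.19 ± 0.57). Met, a receptor tyrosine kinase, had no UMI in the members and was at least 4.83-fold lower, and Kctd16, Galnt14, Npas1, Disp3 and Crtac1 were lower on 1 or 2 UMIs in the members. The calls of Tcf7l2, Arhgef3, Plce1, Met and Crtac1 were lost with Sp8 cells only. Tcf7l2, Arhgef3 and Crtac1 also lost theirs with the stricter gate, and Arhgef3, Met and Crtac1 by DESeq2.

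Against striatal projection neurons, 8 genes named as higher had no UMI in that class, which had 3 counts as its floor over 154 cells. Adamts18, a secreted protease, gave 35 UMIs in 14 members and was at least 10.9-fold higher. Vcam1, an adhesion molecule of neural stem cells, gave 30 UMIs, 24 of them in cells with Pax6 and no Sp8, at least 9.35-fold higher. Mcm3 and Clspn, of DNA replication, gave 28 and 22 UMIs, at least 8.73-fold and 6.86-fold higher. Mfap4, Ism2, Acad10 and Lipg were the others, and for Acad10 18 of 22 UMIs were in 1 member. In the other direction Dlc1, a GTPase-activating protein, had 56 UMIs in striatal projection neurons and none in the members, at least 19.96-fold lower, followed by Ikzf1, Stra6l and Col4a4 with none and by Trpc7, Oprm1, Lypd1 and Slc35f3 with 1 each. The calls of Adamts18, Vcam1, Mfap4, Lipg, Stra6l and Col4a4 were lost with Sp8 cells only. Ism2, Acad10, Lipg, Stra6l and Col4a4 lost theirs by DESeq2, and Dlc1 with likely doublets removed. Ism2, Acad10, Lipg, Trpc7, Oprm1 and Lypd1 lost theirs when Sp8, Pax6 or Etv1 was not required.

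Among the 14652 genes tested, mitochondrial, ribosomal protein, globin and sex-linked genes, unnamed models and repeated gene names were left out here. Of the rest, 244 were called higher and 158 lower in all 3 comparisons, and no share over all genes is given. The comparisons share the sums of the Meis2+ cells, so a joint call adds no independent support. Of the 244, 194 had over 50% of their member UMIs in cells with Pax6 and no Sp8, a kind that holds 44.5% of all member UMIs. The share of all tested genes over 50% was not computed. These cells were also part of the sums behind the calls, so the 194 cannot be judged against a background. With Sp8 cells only and the same genes left out, 46 genes were higher and 75 lower in all 3 comparisons. Of these, 30 and 56 were among the 244 and 158. The 30 include the LIM homeobox factor Lhx2, the corepressor Tle1, the serine synthesis enzyme Phgdh, the cyclin Ccnd2 and the replication genes Pcna, Clspn and Mcm5. Lhx2 was at 117 and 70.4 CPM in the members (51.7 and 64.7 in cells with Sp8) against 4.46 to 16.3 in the 3 classes, and Phgdh at 257 and 153 CPM (112 and 113 with Sp8) against 8.16 to 36.4. Neither overlapped with those classes, while excitatory neurons held Lhx2 at 264 and 239 CPM and cycling progenitors held Phgdh at 159 and 147. The 56 include Snap25, Grin2b, the neuronal factor Myt1l and Mapt, which encodes tau.

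Within the members, cells with Sp8 or Pax6 were set against the 35 cells with Etv1 alone. Genes of the gate formed both groups, so the numbers describe that choice and nothing is read from them as a test. Of 4310 genes with enough counts in the 4 small pools, 13 (0.302%) passed the threshold as higher and 9 (0.209%) as lower. Nxph1 was at 74.7 and 161 CPM with Sp8 or Pax6 against 1142 and 1004 with Etv1 alone, Erbb4 at 568 and 822 against 3909 and 2879, and Gria4, an AMPA receptor subunit, at 33.2 and 116 against 913 and 318, with no overlap for any of these genes. Neurog2 and Eomes had no UMI with Etv1 alone. This split rested on the settings: 1 gene was called after removal of likely doublets, 2 by DESeq2, 4 without the library block, and none with cells of at least 2500 UMIs, where 207 of 4073 genes had an unadjusted p under 0.05, about the share that this threshold lets through with no difference.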

How the data were processed

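Single-cell suspensions of E16.5 WT cerebral cortex were profiled with the 10x Genomics 3' v3.1 chemistry (2 libraries). The deposited files hold raw UMI counts per gene (32285 genes) and barcode, made by the authors with Cell Ranger (version 7.0.0 in the submitters' processing notes, 7.1.0 in the matrix headers) against mm10; no value was normalized by the authors. Barcodes with 1500 to 60000 UMIs and under 10% mitochondrial UMIs were kept. The members, the gene lists and the comparisons were chosen with earlier results of these data known.

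Cells of 6 gated classes were summed per library and tested in 1 fit with edgeR 4.0.16 (R 4.3.3; quasi-likelihood test, TMM, library block; a gene needed 10 or more counts in 2 or more of the sums), leaving out all 27 gate genes, with standard errors taken as the fold change over the root of the F statistic and Benjamini-Hochberg adjustment over all genes. The block was used because every class comes from the same libraries; the replicate numbers only name them. Genes were named by list, or as the 8 called genes (5 for the split within members) with the largest fold in each direction that reached 20 CPM where higher and moved alike in replicates 1 and 2, leaving out gate, mitochondrial, ribosomal protein, globin and sex-linked genes and unnamed models. A bound against a class with no UMI uses 3 counts over the class, and intervals cover counting error only. Gene lists: LGE and olfactory transcription factors, TALE partners, olfactory bulb products, migration and guidance, intercalated amygdala, striatal, MGE and CGE genes, GABA signalling, retinoic acid, neuronal maturation, and markers of 9 other cell types. Clusters came from scanpy 1.11.5 with leidenalg 0.10.2 (2000 variable genes without gate genes, 30 components, 20 neighbours, resolution 1), with no test. Scrublet's automatic threshold marked 0 and 300 barcodes, so doublets were kept, and an alternative removed the highest-scoring barcodes at 0.8% per 1000 barcodes (432 and 1111, of which 4 and 10 were members). The tests were also run on simulated counts, drawn per sum with a fixed spread. Sums of unlike cells differ from that setting, and no support for the calls is drawn from it. Alternatives changed the gate, depth, doublets, members, tool (DESeq2 1.42.0), size factors, count filter, samples in the fit and block. Some genes that the naming rule gives are not reported here.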

Additional observations from a re-analysis of the deposited data

How the results depend on the processing

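Of 1520, 1383 and 1228 genes called against MGE interneurons, CGE interneurons and striatal projection neurons, 793, 594 and 672 were called with a stricter gate, 626, 445 and 574 with members with Sp8 only, 672, 494 and 556 with members with at least 3 Gad UMIs, and 736, 557 and 683 without members with Pax6 and no Sp8; the last 3 settings were chosen after seeing the data, and all 4 use fewer cells. Fitting only the compared classes gave 748 against CGE interneurons, and not requiring Sp8, Pax6 or Etv1 gave 711 against striatal projection neurons; the cause was not tested. The other alternatives left between 919 and 1845. Without the replicate block, which joined the classes of a library, 1261, 1145 and 1017 were called. The share of called genes that were higher went from 45.9% to 32.1% against MGE interneurons, from 44.5% to 24.3% against CGE interneurons and from 51.5% to 39.4% against striatal projection neurons with Sp8 cells only, to 31.4% against CGE interneurons without members with Pax6 and no Sp8, and to 63.2% against striatal projection neurons when no Sp8, Pax6 or Etv1 was needed.

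The split within members fell from 22 genes to 1 with doublets removed, 6 with the stricter gate, 0 with at least 2500 UMIs, 2 by DESeq2, 1 with DESeq2 size factors and 4 without the replicate block. With no filter on low counts it was 25 genes, 9 higher and 16 lower, against 13 and 9 in the main fit. The share of members, 0.888%, was 0.592% with the stricter gate, 2.97% without the need for Sp8, Pax6 or Etv1 and 0.845% with at least 2500 UMIs, and 0.869% and 0.922% without replicate 1 and without replicate 2. Leaving out a library left no residual degrees of freedom, so those fold changes carry no test.

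Of 277 gene values named, 101 kept their direction and call under every alternative fit that gave a value, and 35 changed sign at least once. Leaving out a library is not part of these counts. Without replicate 2, 6 values changed sign, and without replicate 1, 1 did. With Sp8 cells only, log2 fold changes turned to -4.07 (Ptx3), -5.04 (Eomes), -0.22 (Zfp521), 0.12 (Stmn2) and -0.0031 (Fabp7) against MGE interneurons, to -5.99 (Eomes), -4.04 (Tbc1d4), -0.88 (Ackr3), -1.10 (Sema3c), -4.94 (Gabra4) and -0.10 (Fabp7) against CGE interneurons, and to -7.81 (Eomes) and 0.013 (Robo2) against striatal projection neurons. Without members with Pax6 and no Sp8, Eomes turned to -5.04, -5.99 and -7.81 in the same order, and Stmn2 (0.11) and Hes5 (-0.19) turned against MGE interneurons. With 3 Gad UMIs, Bcl11b (0.071) and Hes5 (-0.11) turned against MGE interneurons, Nrg1 (-0.063), Sema3c (-0.70) and Nes (-0.20) against CGE interneurons and Eomes (-1.08) against striatal projection neurons. With the stricter gate, Bcl11b (0.042) and Hes5 (-0.31) turned against MGE interneurons, Nes (-0.11) against CGE interneurons, and Gabrb1 (-0.17) and Eomes (-1.28) against striatal projection neurons. Without the need for Sp8, Pax6 or Etv1, Robo1 (1.03), Epha4 (0.079), Bcl11b (0.68), Pde10a (0.27) and Rbfox1 (0.20) turned against MGE interneurons, Robo1 (0.76) and Mef2c (0.22) against CGE interneurons, and Tle4 (0.37), Meis1 (0.036), Nrp1 (0.078) and Syt1 (0.10) against striatal projection neurons. With doublets removed, C1qb (1.77) and Col1a2 (1.2) turned against MGE interneurons, Hba-a1 (-0.30) and Hba-a2 (-0.50) against CGE interneurons, and Hba-a1 (-0.15), Hba-a2 (-0.43) and Hbb-bs (-0.23) against striatal projection neurons. Leaving out each replicate gave ranges of -0.27 to 2.03 (Nr2f1, striatal projection neurons), -3.21 to 0.75 (C1qb, MGE interneurons), -0.15 to 1.11 (Hba-a1, CGE interneurons), -0.63 to 1.01 (Hba-a2, CGE interneurons), -0.48 to 1.65 (Hba-a1, striatal projection neurons), -0.89 to 1.24 (Hba-a2, striatal projection neurons) and -0.35 to 1.17 (Hbb-bs, striatal projection neurons). The small sums, of 315438 and 426189 UMIs over all members, limit what low genes can show.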
